A study of Mus musculus with 21 samples.

Results

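The genes described here encode the MHC class I molecule of the mouse and the machinery that fills it with peptides. They were named by symbol for their known role, with earlier results of these data known. The class I chain genes are *B2m*, *H2-K1* and *H2-D1*, and the peptide loading genes are *Tap1*, *Tap2* and *Tapbp*. The immunoproteasome genes are *Psmb8*, *Psmb9* and *Psmb10*, and the regulator gene is *Nlrc5*. The array values gave 9 of the 10 genes among 19505 genes in all, each by 1 transcript cluster, and *Nlrc5* is not analysed here. RNA came from splenic T cells of wildtype mice that were activated with CD3/CD28 beads and kept for 48 h in 1 of 3 media, and CD8+ cells were then taken back out with magnetic beads. The AML group had medium conditioned by WEHI 3B cells, a mouse myelomonocytic leukaemia line (AML, acute myeloid leukaemia). The DC group had medium conditioned by dendritic cells (DC) grown from bone marrow. The control group had fresh medium. Each group held 7 arrays labelled as biological replicates, without a strain, an age or a statement of which replicates shared a mouse or a batch of medium. The bead-activated control cells are themselves stimulated, so every level below is that of an activated T cell.

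Class I molecules show peptides from inside a cell to CD8+ T cells and, when lost, expose the cell to natural killer cells. The immunoproteasome cuts proteins into peptides, the TAP transporter carries the peptides into the endoplasmic reticulum, and tapasin holds the empty class I molecule at the transporter until a peptide binds. Interferon gamma, which activated CD8+ T cells secrete, induces all of these steps, and T cells carry class I at high density themselves.

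Markers of CD8 T cells were high. The mean log2 level of *Cd8a* and *Cd8b1* was 11.62 to 11.75 in AML arrays and 11.65 to 11.80 in DC arrays. In fresh-medium arrays it was 11.60 to 11.78. The CD4 T cell marker *Cd4* averaged 8.56 in AML, 8.02 in DC and 7.77 in fresh-medium arrays. The description label speaks of CXCL12-abundant reticular cells, against the other labels, which give CD8+ T cells. Markers of other antigen-presenting cells were low: over 6 dendritic cell markers the mean log2 level was 3.58 to 3.82 in AML, 3.50 to 3.89 in DC and 3.55 to 3.74 in fresh-medium arrays. Over 6 macrophage and monocyte markers it was 3.97 to 4.24 in AML, 3.99 to 4.30 in DC and 4.00 to 4.29 in fresh-medium arrays. Earlier work on these data set AML replicates 4 and 5 apart, and results that rest on them are given with and without them.

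Neither conditioned medium moved the class I and peptide loading genes past the test. In limma, with p-values adjusted over all genes by the Benjamini-Hochberg method, 0 of 9 genes were called after AML-conditioned against fresh medium at an adjusted p under 0.05, where 2.77% of all 19505 genes were called. For DC-conditioned against fresh medium the count was 0 of 9, beside 0% of all genes. For AML-conditioned against DC-conditioned medium it was 0 of 9, beside 2.39% of all genes. At an unadjusted p under 0.05 in limma, 1 of 9 passed between AML-conditioned and fresh medium, *H2-K1*, which was higher; 15.9% of all genes passed, 7.11% higher and 8.78% lower. Between DC-conditioned and fresh medium 0 of 9 passed, beside 6.41% of all genes (2.13% higher and 4.29% lower). Between AML-conditioned and DC-conditioned medium 0 of 9 passed, beside 14.3% (6.82% higher and 7.44% lower). In none of the 9 genes did the 7 arrays of one medium lie wholly above or below the 7 of another. Of all genes, 0.354% lay wholly higher and 0.441% wholly lower in AML-conditioned than in fresh medium, 0.0359% and 0.0769% in DC-conditioned than in fresh medium, and 0.436% and 0.379% in AML-conditioned than in DC-conditioned medium.

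The precision bounds how far these genes could have moved. The 95% confidence intervals of the 9 differences between AML-conditioned and fresh medium lay within 0.824-fold (*Psmb10*) and 1.25-fold (*Tapbp*), and those between DC-conditioned and fresh medium within 0.899-fold (*Psmb10*) and 1.17-fold (*Tapbp*). Between AML-conditioned and DC-conditioned medium they lay within 0.822-fold (*Psmb10*) and 1.22-fold (*H2-K1*). The intervals rest on 1 estimate of the spread for all 3 media; fitted on the AML and fresh-medium arrays alone, the bounds were 0.811-fold and 1.27-fold. In replicates 4 to 7 alone, with 4 arrays a medium, the bounds between AML-conditioned and fresh medium reached 0.747-fold (*Psmb10*) and 1.40-fold (*H2-K1*). Between AML-conditioned and DC-conditioned medium they reached 0.7375-fold (*Psmb10*) and 1.35-fold (*H2-K1*) there. Between DC-conditioned and fresh medium they reached 0.785-fold (*Psmb8*, replicates 1 to 3 only) and 1.29-fold (*Tap2*, replicates 4 to 7 only). Array values compress differences at the top and bottom of their scale, so the true ratios may be wider. The median of the 9 log2 differences was 0.07 between AML-conditioned and fresh medium, beside -0.01 over all genes, 0.02 between DC-conditioned and fresh medium, beside -0.01, and 0.03 between AML-conditioned and DC-conditioned medium, beside 0.01. These comparisons share arrays and are not independent of each other.

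**Figure D1:**
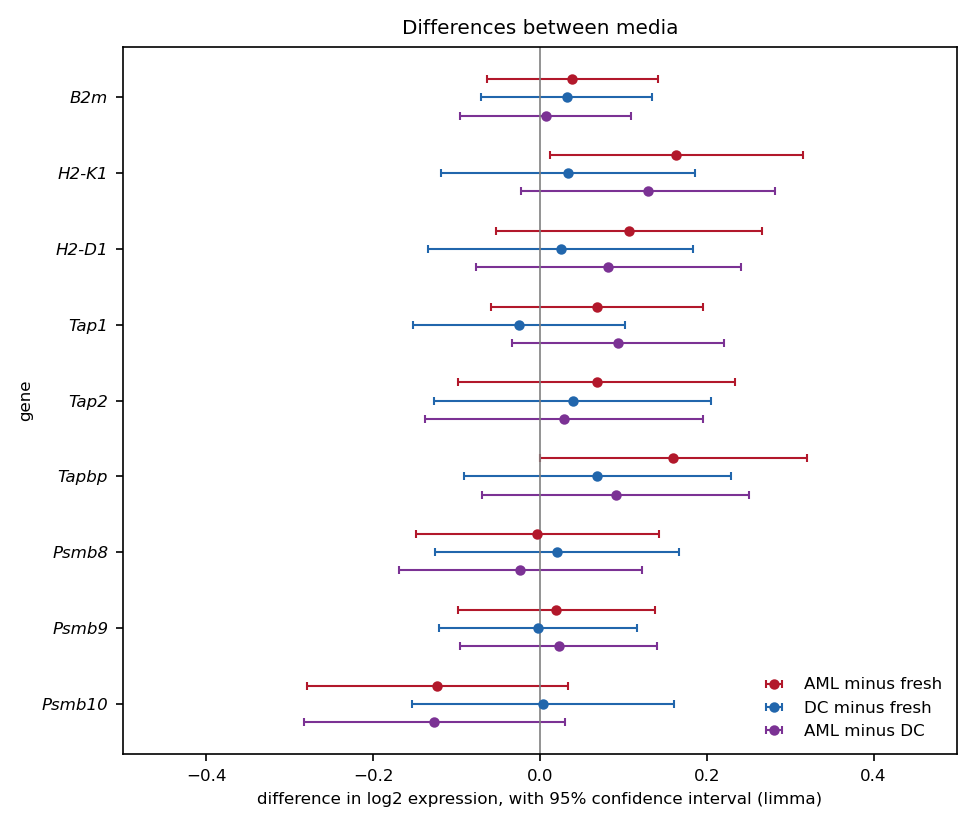
Differences in log2 expression between media (x axis) for the 9 genes (y axis), as points with 95% confidence intervals from limma. All points lie between -0.13 and 0.16, and the interval of *H2-K1* for AML minus fresh medium stays above 0 before adjustment for multiple tests.

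The class I molecule is built from a heavy chain, encoded by *H2-K1* or *H2-D1*, and beta-2-microglobulin, encoded by *B2m*. *B2m* had a lowest log2 value of 12.88, a median of 12.96 and a highest value of 13.02 in AML arrays, 12.92, 12.95 and 12.98 in DC arrays, and 12.87, 12.92 and 12.99 in fresh-medium arrays. The ranges overlapped throughout, and the 3 media followed the order AML, DC, fresh with differences no larger than their spread. *B2m* had the highest value of all 19505 genes on 21 of 21 arrays, so its values sit at the ceiling of the scale: after a further quantile normalization its difference between any 2 media was 0, and a change in *B2m* RNA could have been missed. The log2 difference was 0.04 (SE 0.05, adjusted p = 0.781) between AML-conditioned and fresh medium and 0.03 (SE 0.05, adjusted p = 0.961) between DC-conditioned and fresh medium in limma.

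*H2-K1* encodes the heavy chain H-2K. It ranged from 11.54 over a median of 11.75 to 12.05 in AML arrays, from 11.61 over 11.64 to 11.75 in DC arrays, and from 11.49 over 11.62 to 11.76 in fresh-medium arrays. AML replicates 3, 4 and 5, at 11.81, 12.05 and 12.02, lay above the other 18 arrays, while AML replicate 7 lay below every DC array. Between AML-conditioned and fresh medium *H2-K1* differed by 0.16 (SE 0.07, unadjusted p = 0.0359, adjusted p = 0.270 in limma), the largest difference of the 9 genes in that comparison. Without AML replicates 4 and 5 the difference was 0.066 (adjusted p = 0.794), and of the other AML arrays only replicate 3 lay above those in fresh medium. The differences in replicates 1 to 3 and 4 to 7 alone were 0.03 and 0.26, and whether the 2 sets differ was not tested.

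*H2-D1* encodes the heavy chain H-2D. It ranged from 10.11 over 10.42 to 10.51 in AML arrays, from 10.18 over 10.24 to 10.39 in DC arrays, and from 10.07 over 10.17 to 10.43 in fresh-medium arrays. The AML arrays fell into 4 high and 3 low values, with replicate 2 the lowest, and replicates 1, 4 and 5 lay above all DC and fresh-medium arrays. The log2 difference between AML-conditioned and fresh medium was 0.11 (SE 0.08, adjusted p = 0.546 in limma), and 0.060 (adjusted p = 0.866) without AML replicates 4 and 5. The heavy chain genes are alike over long stretches, their alleles differ between mouse strains, and the deposited values do not show how probes that match several of them were treated, so *H2-K1* and *H2-D1* may include signal of each other and of related genes.

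The 2 heavy chain genes also share sequence in their promoter windows. The 30 bases below, from the mouse genome (GRCm38.p6) in RefSeq's promoter windows, start at the same element and are read along the gene's own strand. The segment of *H2-D1* lies upstream of the annotated gene; that of *H2-K1* lies upstream of the start used in the promoter table but inside the gene's full annotated span. They are shown because this segment holds the letters GGGATTCCC, known as a site for NF-kappa B, and TTTCACTT, a form of the core bound by interferon regulatory factors (searched as AANNGAAA on both strands), which capitals mark.
*H2-K1*, chr17:34000429-34000458, minus strand: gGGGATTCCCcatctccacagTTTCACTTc
*H2-D1*, chr17:35262923-35262952, plus strand: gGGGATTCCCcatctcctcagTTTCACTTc
The segments share 29 of 30 bases and differ by A18T (the *H2-K1* base, the position from 1 at the left end, the *H2-D1* base). Promoter windows were matched for 8 of the 10 named genes; *Tap2* and *Nlrc5* had none.

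*B2m* lies on another chromosome, and its upstream region carries part of the same set of letters. The 180 bases before the start of each of *B2m* and *H2-D1* are given, with capitals for the motifs searched on both strands: GGGATTCCC, AANNGAAA, TGACG (the half-site of cyclic AMP response elements), CCAAT and TTCNNNGAA (the gamma-activated site). TTCNNNGAA was not found in any of the printed sequences. Counted back from the start of the gene, TGACG began at -78 in *B2m* and at -101 in *H2-D1*, in both cases followed by ATTGG, which is CCAAT on the other strand. A TGACG-like box beside a CCAAT box belongs to the module through which RFX, CREB family and NF-Y factors with *Nlrc5* act on class I genes.
*B2m*, chr2:122147507-122147686, plus strand: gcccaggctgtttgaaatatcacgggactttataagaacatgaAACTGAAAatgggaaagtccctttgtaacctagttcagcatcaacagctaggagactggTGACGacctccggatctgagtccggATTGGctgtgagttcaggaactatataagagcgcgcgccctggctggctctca
*H2-D1*, chr17:35262914-35263093, plus strand: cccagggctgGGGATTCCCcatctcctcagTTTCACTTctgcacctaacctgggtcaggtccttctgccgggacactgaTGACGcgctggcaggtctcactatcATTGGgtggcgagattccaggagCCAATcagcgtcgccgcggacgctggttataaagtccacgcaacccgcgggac
In the 250 bases upstream of all 27025 genes of the table, GGGATTCCC was present in 0.311%, AANNGAAA in 21.6%, TGACG in 17.9%, CCAAT in 34.5% and TTCNNNGAA in 7.18%. Of the 8 matched genes, 2 held GGGATTCCC (*H2-K1* and *H2-D1*), 3 AANNGAAA, 5 TGACG, 6 CCAAT and 1 TTCNNNGAA (*Psmb8*). For NF-kappa B only the form GGGATTCCC was searched, so a gene without these letters may hold another form of the site. These are matches of letters, not measured binding.

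The peptide loading genes encode both chains of the transporter (*Tap1*, *Tap2*) and tapasin (*Tapbp*). *Tap1* ranged from 10.62 over 10.76 to 10.93 in AML arrays, from 10.60 over 10.65 to 10.76 in DC arrays, and from 10.55 over 10.68 to 10.85 in fresh-medium arrays. It was the only 1 of the 3 loading genes whose mean was lowest in DC arrays, and its ranges overlapped in all media. The log2 difference was 0.07 (SE 0.06, adjusted p = 0.650 in limma) between AML-conditioned and fresh medium and 0.09 (SE 0.06, adjusted p = 0.538) between AML-conditioned and DC-conditioned medium.

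*Tap2* ranged from 8.91 over 9.07 to 9.37 in AML arrays, from 8.98 over 9.06 to 9.18 in DC arrays, and from 8.92 over 8.99 to 9.33 in fresh-medium arrays. AML replicates 4 and 5 (both 9.37) and fresh replicate 1 (9.33) were the high arrays, and the other 18 lay at or below 9.18. The difference between AML-conditioned and fresh medium was 0.07 (SE 0.08, adjusted p = 0.756 in limma). It turned to -0.04 (adjusted p = 0.909) without AML replicates 4 and 5.

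*Tapbp* ranged from 9.99 over 10.27 to 10.34 in AML arrays, from 10.02 over 10.09 to 10.22 in DC arrays, and from 9.88 over 10.002 to 10.37 in fresh-medium arrays. In AML arrays 5 of 7 lay above 10.1 and replicates 6 and 7, both at 9.99, lay apart; fresh replicate 1 was the highest of all 21 arrays. The difference between AML-conditioned and fresh medium was 0.16 (SE 0.08, unadjusted p = 0.0501, adjusted p = 0.315 in limma). Without fresh replicate 1 it was 0.22 (adjusted p = 0.105), the smallest adjusted p of any of the 9 genes under 32 other settings.

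*Tap1* and *Psmb9* stand head to head on chromosome 17, and the order along the chromosome is *Psmb9*, *Tap1*, *Psmb8*, *Tap2* with no other protein-coding gene between them in the annotation. The 225 bases between the starts of *Psmb9* and *Tap1* serve both genes and are given along the strand of *Tap1*, with the same motifs in capitals; of these motifs it held 1 CCAAT and 1 TGACG, which began at -86 from the start of *Tap1*.
*Psmb9* to *Tap1*, chr17:34187331-34187555, plus strand: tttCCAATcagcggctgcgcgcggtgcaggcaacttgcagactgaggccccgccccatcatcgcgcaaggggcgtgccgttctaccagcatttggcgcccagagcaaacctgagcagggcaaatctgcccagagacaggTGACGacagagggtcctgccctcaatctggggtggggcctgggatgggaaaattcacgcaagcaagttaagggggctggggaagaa

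The 3 immunoproteasome genes encode the catalytic subunits that replace those of the constitutive proteasome. *Psmb8*, which encodes LMP7, ranged from 10.41 over 10.66 to 10.77 in AML arrays, from 10.50 over 10.70 to 10.85 in DC arrays, and from 10.41 over 10.66 to 10.73 in fresh-medium arrays. The 3 ranges overlapped over most of their length. The log2 difference was -0.0030 (SE 0.07, adjusted p = 0.992 in limma) between AML-conditioned and fresh medium and 0.02 (SE 0.07, adjusted p = 0.980) between DC-conditioned and fresh medium.

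*Psmb9*, which encodes LMP2, ranged from 10.02 over 10.19 to 10.27 in AML arrays, from 10.08 over 10.15 to 10.20 in DC arrays, and from 10.04 over 10.13 to 10.27 in fresh-medium arrays. The arrays of the 3 media were mixed, and the difference between AML-conditioned and fresh medium was 0.02 (SE 0.06, adjusted p = 0.919 in limma). *Psmb10*, which encodes MECL-1, was the gene with the largest negative difference. It ranged from 8.44 over 8.76 to 8.87 in AML arrays, from 8.75 over 8.78 to 8.96 in DC arrays, and from 8.62 over 8.90 to 8.94 in fresh-medium arrays. AML replicates 4, 5 and 6 (8.44, 8.56 and 8.55) lay below the other 18 arrays, and AML replicates 1 to 3 and 7 lay among them. The difference was -0.12 (SE 0.08, adjusted p = 0.462) from fresh and -0.13 (SE 0.08, adjusted p = 0.489) from DC-conditioned medium in limma. Without AML replicates 4 and 5 it was -0.046 (adjusted p = 0.891) from fresh and -0.050 (adjusted p = 0.917) from DC-conditioned medium.

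**Figure D2:**
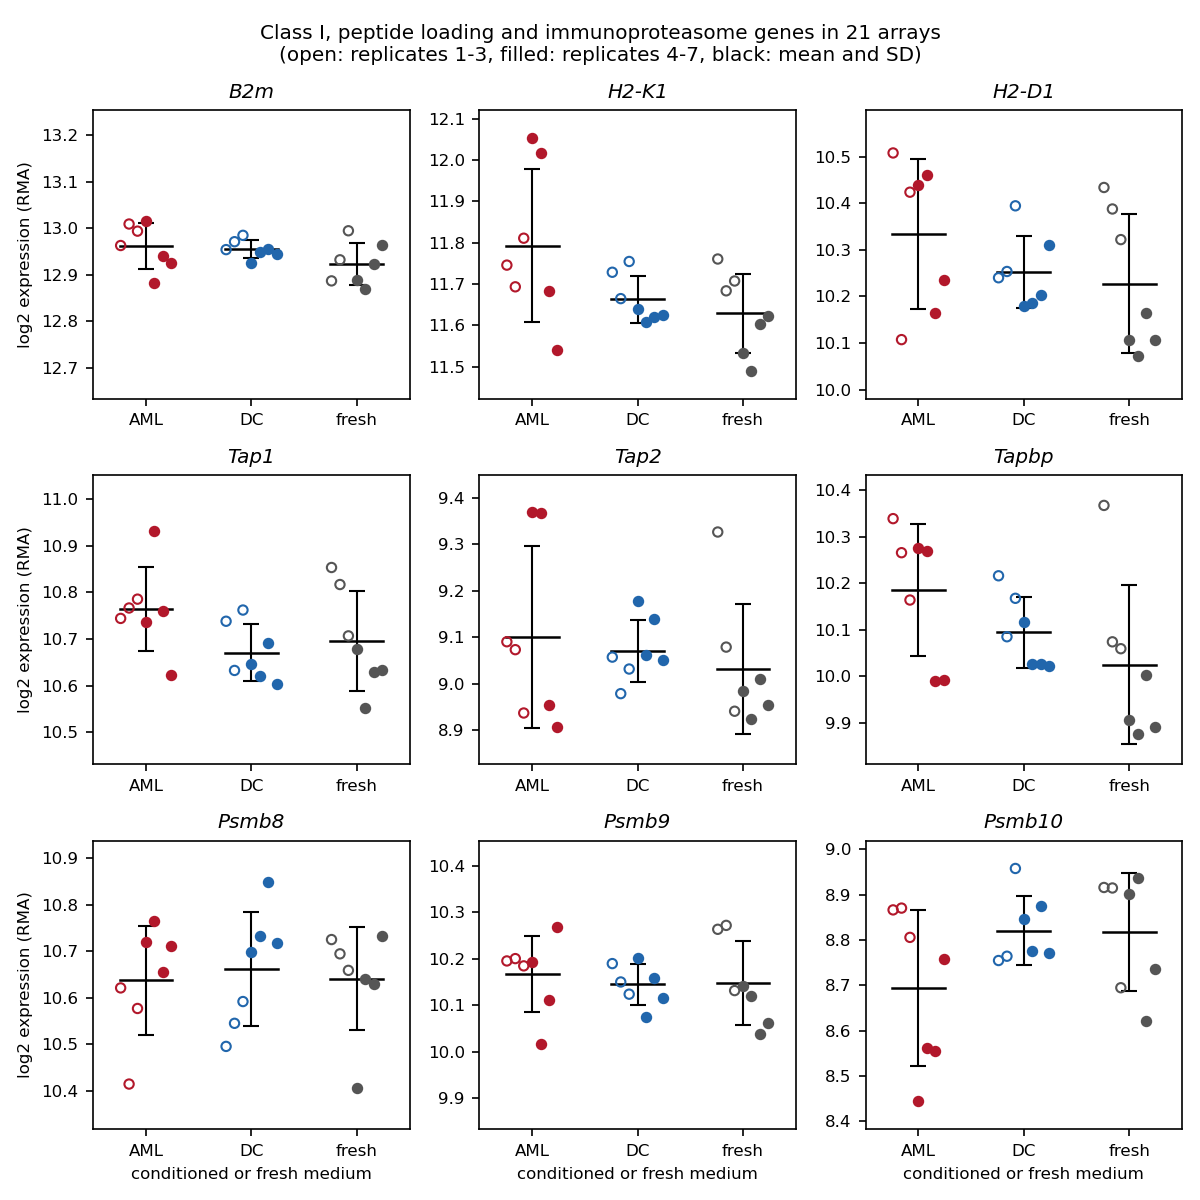
Log2 expression (y axis) of the 9 genes in 21 arrays, by medium (x axis: AML, DC, fresh). Points are arrays, open for replicates 1 to 3 and filled for 4 to 7; black lines are means with SD (n = 7). AML replicates 4 and 5 are the 2 highest arrays for *H2-K1* at 12.05 and 12.02, and the DC arrays lie close together.

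Means did not differ past the test, but arrays within a medium did not spread evenly. The SD over DC arrays was the lowest of the 3 media in 8 of 9 genes, beside 38.1% of all genes. For *H2-K1* the SD was 0.19 in AML arrays, 0.06 in DC arrays and 0.10 in fresh-medium arrays (n = 7 each), and for *Tap2* 0.20, 0.07 and 0.14. AML replicates 4 and 5 were the highest arrays for both genes. The other AML arrays ran from 11.54 to 11.81 for *H2-K1* and from 8.91 to 9.09 for *Tap2*. The fresh-medium arrays ran from 11.49 to 11.76 and from 8.92 to 9.33. The SD without AML replicates 4 and 5 was not computed. The SD in AML arrays exceeded that in DC arrays in 8 of 9 genes (53.6% of all genes) and that in fresh-medium arrays in 6 of 9 (44.9% of all genes). With the group means removed, the residual SD of the 9 genes ran from 0.04 for *B2m* to 0.14 for *Tap2*, with a median of 0.13 against 0.18 over all genes.

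The heavy chain and loading genes varied together between arrays, with and without AML replicates 4 and 5, whereas their relation to the immunoproteasome genes differed between these sets of arrays. Across the 21 arrays, with the group means removed, the 10 pairs among *H2-K1*, *H2-D1*, *Tap1*, *Tap2* and *Tapbp* had Pearson correlations of 0.49 to 0.74, highest for *H2-K1* with *Tap2*. Without AML replicates 4 and 5, over 19 arrays, the same pairs had 0.38 to 0.83, and *H2-K1* with *Tap2* had 0.41. *B2m*, whose values sit at the ceiling of the scale, had -0.21 (*Tap2*) to 0.21 (*H2-K1*) with those 5 genes over 21 arrays. Over 19 arrays *B2m* had -0.21 (*Tap2*) to 0.54 (*H2-K1*) with them. The median over all 36 pairs of the measured class I, loading and immunoproteasome genes was 0.14 over 21 arrays. Pairs of other genes were not tested. Of the 3 immunoproteasome pairs, *Psmb9* with *Psmb10* had 0.52 over 21 arrays and 0.56 over 19, and *Psmb8* with *Psmb10* -0.30 and -0.15. *Tap1* and *Psmb9*, which share the segment printed above, had 0.12 over 21 arrays and 0.50 over 19. Over the 19 arrays *Psmb9* also had 0.53 with *Tap2*, 0.51 with *Tapbp* and 0.43 with *H2-D1*, against 0.06, 0.34 and 0.22 over all 21. *H2-K1* and *Psmb10* had -0.41 over 21 arrays and 0.08 over 19, so the negative value rests on AML replicates 4 and 5. These are descriptions over arrays that share labelling and normalization.

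By group of genes, AML replicates 4 and 5 were the highest arrays for the class I chains and among the 3 highest for the loading genes. Relative to the fresh-medium mean, the mean log2 value of *B2m*, *H2-K1* and *H2-D1* was 0.24 and 0.19 there, and -0.03 to 0.15 in the other 5 AML arrays. It was -0.01 to 0.12 in DC arrays and -0.12 to 0.10 in fresh-medium arrays. The mean of *Tap1*, *Tap2* and *Tapbp* was 0.21 and 0.27 in AML replicates 4 and 5, beside 0.26 in fresh replicate 1. The immunoproteasome mean in those AML replicates was -0.08 and -0.09, inside the span of fresh medium (-0.11 to 0.10).

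**Figure D3:**
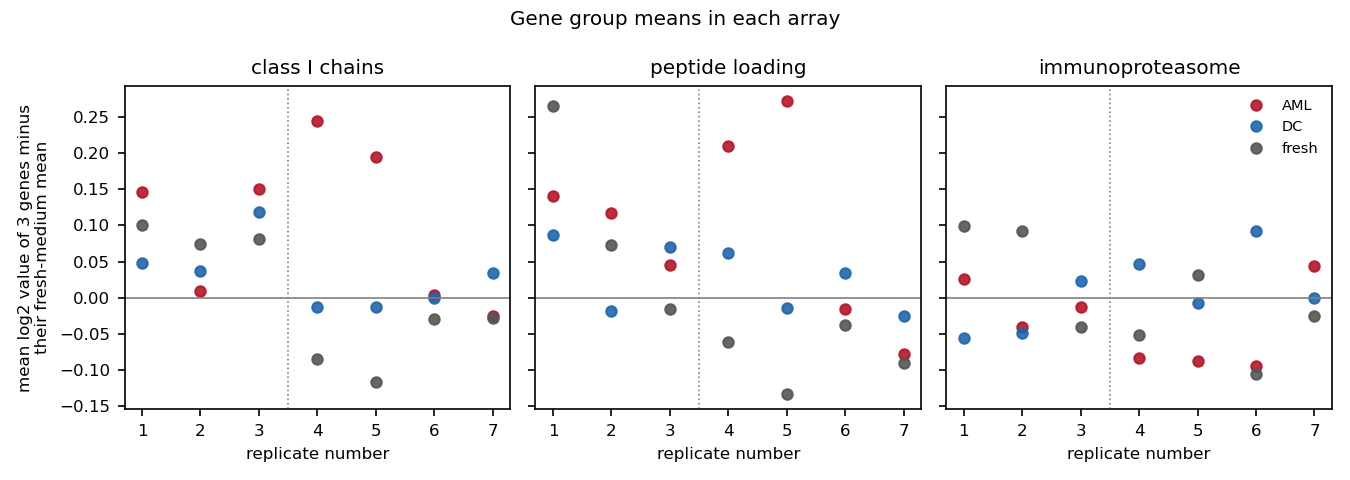
Mean log2 value of the 3 genes of each group relative to their fresh-medium mean (y axis) by replicate number (x axis); a dotted line parts replicates 1 to 3 from 4 to 7. AML replicates 4 and 5 are at 0.24 and 0.19 for the class I chains and at -0.08 and -0.09 for the immunoproteasome.

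Within a medium, replicate number went with the level of several of these genes, and the gaps differed between media. In fresh medium all 9 genes had a higher mean in replicates 1 to 3 than in 4 to 7, and for *H2-K1*, *H2-D1*, *Tap1* and *Tapbp* the 2 sets did not overlap, 4 of 9 genes beside 15.2% of all genes. *H2-D1* averaged 10.38 ± 0.06 in fresh replicates 1 to 3 (SD, n = 3) and 10.11 ± 0.04 in fresh replicates 4 to 7 (SD, n = 4), a gap of 0.27 that exceeds its difference between any 2 media. The *H2-D1* gap was 0.08 in DC arrays and 0.02 in AML arrays. A higher mean in replicates 1 to 3 was seen in 7 of 9 genes in DC medium and 6 of 9 in AML medium. The share of all genes with a higher mean in replicates 1 to 3 was not counted in any medium. Whether this direction is particular to the 9 genes is therefore not known. In DC medium *H2-K1* and *Psmb8* did not overlap between the sets, 2 of 9 genes beside 24.8% of all genes. *Psmb8* was lower in replicates 1 to 3 there, at 10.54 ± 0.05 against 10.75 ± 0.07 (SD, n = 3 and 4). In AML medium *Psmb8*, again lower in replicates 1 to 3, and *Psmb10*, higher in them, did not overlap, 2 of 9 genes beside 10.6% of all genes. The labels do not say what the numbers stand for, and this division was taken from the data in earlier work, so no test is given.

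Other class I heavy chains did not pass the adjusted test either. Of 19 further class I and class I-like genes, 15 were measured and 0 were called in any comparison. At an unadjusted p under 0.05 in limma, *H2-Q1*, *H2-M3*, *H2-Q4*, *H2-T10*, *H2-T22*, *H2-T23*, *H2-T3* and *H2-Bl* passed between AML-conditioned and fresh medium. All were higher, beside 7.11% of all genes higher, and most were named after their values were seen. Between AML-conditioned and DC-conditioned medium *H2-Q4*, *H2-T10* and *H2-T23* passed, all higher, beside 6.82% of all genes. Between DC-conditioned and fresh medium *H2-M9* passed and was lower, beside 4.29%. Their median difference between AML-conditioned and fresh medium was 0.17, beside -0.01 over all genes, and between DC-conditioned and fresh medium 0.04. The highest difference was that of *H2-Q1*, a class I gene of the Q region (log2 0.36, SE 0.10, adjusted p = 0.0637 in limma), and the lowest that of *Mr1*, which presents vitamin metabolites to innate-like T cells (-0.10, adjusted p = 0.701). *H2-T23*, which encodes Qa-1, a ligand of the inhibitory receptor NKG2A, differed by 0.17 (adjusted p = 0.280). The caution on shared probes applies to all of these.

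Further genes of loading, trimming and the proteasome also stayed short of the threshold. Of 12 measured loading and trimming genes 0 were called in any comparison. *Erap1*, the aminopeptidase that trims peptides in the endoplasmic reticulum, differed by 0.20 (SE 0.08, adjusted p = 0.195) between AML-conditioned and fresh medium. *Pdia3*, the oxidoreductase ERp57 of the loading complex, differed by -0.16 (adjusted p = 0.396) there and by -0.31 (adjusted p = 0.0682) from DC-conditioned medium. Between AML-conditioned and fresh medium the chaperone genes *Calr* and *Canx* differed by -0.01 and -0.07, and *Tapbpl*, the tapasin relative TAPBPR, by 0.02. Both measured constitutive subunits, *Psmb6* (-0.12, adjusted p = 0.452) and *Psmb7* (-0.02, adjusted p = 0.940), and the activator genes *Psme1* (0.06) and *Psme2* (0.16, adjusted p = 0.242) did not pass. The subunit that *Psmb8* replaces, *Psmb5*, is not analysed here.

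Among genes that control class I transcription, 1 of 13 measured was called after AML-conditioned medium. *Rfxap* encodes a subunit of the RFX complex, which binds the X box of class I and class II promoters. It had 7.58, 7.90 and 8.002 as lowest, median and highest log2 value in AML arrays, 7.99, 8.08 and 8.30 in DC arrays and 7.97, 8.10 and 8.24 in fresh-medium arrays. The AML arrays lay lowest, with 2 of 7 overlapping the other media. *Rfxap* fell by 0.29 on the log2 scale against fresh medium (SE 0.08, adjusted p = 0.0376) and fell by 0.30 against DC-conditioned medium (adjusted p = 0.0352) in limma. Its partners *Rfx5* (0.05) and *Rfxank* (-0.25, adjusted p = 0.198), and *Irf1* (0.12, adjusted p = 0.585) and *Irf2* (0.23, adjusted p = 0.181), interferon regulatory factors that bind the core marked above, did not pass. The call of *Rfxap* against fresh medium was lost under 13 of 32 alternatives, at -0.21 (adjusted p = 0.251) without AML replicates 4 and 5. Leaving out any 1 of AML replicates 1, 4 and 5 or fresh replicates 1, 2, 5 and 6 also ended it, at -0.25 to -0.295 (adjusted p = 0.0541 to 0.103). Against DC-conditioned medium AML replicates 1, 4 and 5 and DC replicates 4 to 7 each did so, at -0.25 to -0.31 (adjusted p = 0.0525 to 0.101).

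In the interferon gamma pathway, which drives class I genes, 1 of 7 measured signalling genes rose and 1 fell after AML-conditioned medium. *Ifngr1*, the ligand-binding receptor chain, ranged from 10.12 over 10.84 to 11.23 in AML arrays, from 10.92 over 11.04 to 11.50 in DC arrays and from 11.05 over 11.33 to 11.68 in fresh-medium arrays. It fell by 0.60 (SE 0.15, adjusted p = 0.0351 in limma) against fresh medium, and the difference was -0.36 (adjusted p = 0.245) without AML replicates 4 and 5, the 2 lowest arrays. Leaving out AML replicate 4 or 5 or 1 of fresh replicates 1 to 4 also ended this call, at -0.50 to -0.60 (adjusted p = 0.0592 to 0.0997). *Socs1*, which blocks JAK kinases in a feedback loop, ranged from 8.46 over 8.93 to 9.19 in AML arrays, from 8.34 over 8.43 to 8.61 in DC arrays and from 8.22 over 8.54 to 8.75 in fresh-medium arrays. It rose by 0.39 against fresh medium (SE 0.09, adjusted p = 0.0256) and by 0.46 against DC-conditioned medium (adjusted p = 0.00964), and 6 of 7 AML arrays lay above all others. The call against DC-conditioned medium was lost without AML replicates 4 and 5 (0.42, adjusted p = 0.0603), in replicates 1 to 3 only (0.49, adjusted p = 0.0836) and in replicates 4 to 7 only (0.44, adjusted p = 0.140). *Ifng* itself differed by 0.45 against fresh medium (adjusted p = 0.443), with AML replicates 4 and 5 at 7.99 and 8.24 against at most 7.34 in fresh-medium arrays. Against DC-conditioned medium *Ifng* differed by 0.91 (unadjusted p = 0.00233, adjusted p = 0.0730 in limma). Between DC-conditioned and fresh medium it differed by -0.46 (adjusted p = 0.828). Against fresh medium *Ifngr2* (0.30, adjusted p = 0.255), *Jak1* (-0.02) and *Jak2* (-0.09) did not pass.

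Among 11 measured interferon gamma targets outside class I, 1 rose after AML-conditioned medium. *Irgm1*, an immunity-related GTPase, ranged from 10.15 over 10.37 to 10.55 in AML arrays, from 9.97 over 10.10 to 10.24 in DC arrays and from 9.97 over 10.11 to 10.23 in fresh-medium arrays. It rose by 0.26 against fresh medium (SE 0.07, adjusted p = 0.0397) and by 0.27 against DC-conditioned medium (adjusted p = 0.0339) in limma. In AML medium 6 of 7 arrays lay above all others. *Cd274*, which encodes PD-L1, differed by 0.43 (adjusted p = 0.117). The median difference of the 11 targets was 0.07. *Socs1* lost its call against fresh medium under 8 of 32 alternatives and *Irgm1* under 14, at 0.34 (adjusted p = 0.141) and 0.23 (adjusted p = 0.192) without AML replicates 4 and 5. Leaving out AML replicate 2 or 5 or fresh replicate 3 or 6 ended the call of *Socs1* (0.33 to 0.37, adjusted p = 0.0506 to 0.0767). Leaving out any 1 of AML replicates 2 to 5 or fresh replicates 1 to 5 ended that of *Irgm1* against fresh medium (0.23 to 0.27, adjusted p = 0.0502 to 0.0965), and any 1 of AML replicates 2 to 5 or DC replicates 3 to 7 that against DC-conditioned medium (0.23 to 0.27, adjusted p = 0.0532 to 0.0878).

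Class II genes, the counterpart for presenting peptides to CD4 T cells, contained called genes in both directions. Of 9 measured, 2 rose and 1 fell against fresh medium, and 1 rose and 1 fell against DC-conditioned medium. *H2-Ab1*, a class II beta chain, ranged from 5.60 over 6.89 to 8.15 in AML arrays, from 8.10 over 8.13 to 8.89 in DC arrays and from 7.82 over 8.49 to 8.65 in fresh-medium arrays. AML replicates 1 to 5 lay below all other arrays, and AML replicates 6 and 7 lay within the range of the other media. *H2-Ab1* fell by 1.33 against fresh medium (SE 0.30, adjusted p = 0.0168) and fell by 1.38 against DC-conditioned medium (adjusted p = 0.0138) in limma. The class II transactivator gene *Ciita* differed by -0.02 (adjusted p = 0.943). The partner chain gene *H2-Aa*, chosen after its values were seen, differed by -0.20 (adjusted p = 0.527).

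*H2-DMb1* and *H2-DMb2* encode beta chains of H2-DM, which edits class II peptides. How any probes that match both genes were treated is not shown, so they may include signal of each other. The alpha chain gene *H2-DMa*, chosen after its values were seen, differed by 0.36 between AML-conditioned and fresh medium (adjusted p = 0.284 in limma). *H2-DMb1* ranged from 7.37 over 7.91 to 8.59 in AML arrays, from 7.02 over 7.25 to 7.43 in DC arrays and from 6.94 over 7.15 to 7.64 in fresh-medium arrays. It rose by 0.66 against fresh medium (SE 0.15, adjusted p = 0.0168) and by 0.66 against DC-conditioned medium (adjusted p = 0.0172) in limma. *H2-DMb2* rose by 0.96 against fresh medium (SE 0.24, adjusted p = 0.0312), with AML replicates 4 and 5 at 8.61 and 8.77 against at most 7.38 in the other arrays. Without AML replicates 4 and 5 none of these calls held, at -0.82 (adjusted p = 0.0985) for *H2-Ab1*, 0.44 (adjusted p = 0.118) for *H2-DMb1* and 0.49 (adjusted p = 0.0950) for *H2-DMb2* against fresh medium. Against DC-conditioned medium the values without those replicates were -0.88 (adjusted p = 0.0763) for *H2-Ab1*, 0.44 (adjusted p = 0.128) for *H2-DMb1*, 0.24 (adjusted p = 0.184) for *Irgm1* and -0.22 (adjusted p = 0.264) for *Rfxap*, so these calls were lost too. Replicates 1 to 3 alone hold neither of those arrays. There *H2-Ab1* stayed called against fresh medium, at -1.38 (adjusted p = 0.00161 in limma). *H2-DMb1* and *H2-DMb2* did not, at 0.42 (adjusted p = 0.147) and 0.45 (adjusted p = 0.065). Against fresh medium the call was lost under 3 of 32 alternatives for *H2-Ab1*, 4 for *H2-DMb1* and 10 for *H2-DMb2*. Leaving out 1 of AML replicates 4 and 5 and fresh replicates 4 to 6 ended the call of *H2-DMb2* (0.75 to 0.92, adjusted p = 0.0573 to 0.0771), and leaving out AML replicate 4 that of *H2-DMb1* against DC-conditioned medium (0.59, adjusted p = 0.0524). Class II genes mark B cells as well: over 5 measured B cell markers the mean log2 level was 4.52 to 4.76 in AML arrays, 4.42 to 4.73 in DC arrays and 4.55 to 5.00 in fresh-medium arrays. *Cd4*, 1 of 3 CD4 T cell markers called, was higher by 0.79 (SE 0.18, adjusted p = 0.0150 in limma) after AML-conditioned than after fresh medium. The other CD4 T cell markers were higher too but not called. *Cd40lg* differed by 0.31 (unadjusted p = 0.0413, adjusted p = 0.288 in limma). *Zbtb7b* differed by 0.17 (unadjusted p = 0.0467, adjusted p = 0.304 in limma). *Eomes*, 1 of 3 measured natural killer cell markers called, was higher by 0.71 (adjusted p = 0.00844 in limma). The mean log2 level of the 3 CD4 T cell markers was 6.39 to 6.99 in AML, 6.17 to 6.75 in DC and 6.02 to 6.56 in fresh-medium arrays, and that of the 3 natural killer cell markers 4.98 to 5.46 in AML, 4.82 to 5.14 in DC and 4.85 to 5.07 in fresh-medium arrays. Of the natural killer cell markers *Eomes*, which activated CD8+ T cells also express, averaged 9.29 in AML and 8.58 in fresh-medium arrays, while *Ncr1* (3.50 in AML, 3.45 in fresh medium) and *Klrb1c* (3.05 in AML, 2.85 in fresh medium) were low and not called. The part of any of these in the results was not tested.

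Over all 76 measured genes of the listed pathways outside the 9, 4 rose and 3 fell against fresh medium, beside 1.3% of all genes higher and 1.48% lower, and 3 rose and 2 fell against DC-conditioned medium, beside 1.13% and 1.26%.

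**Figure D4:**
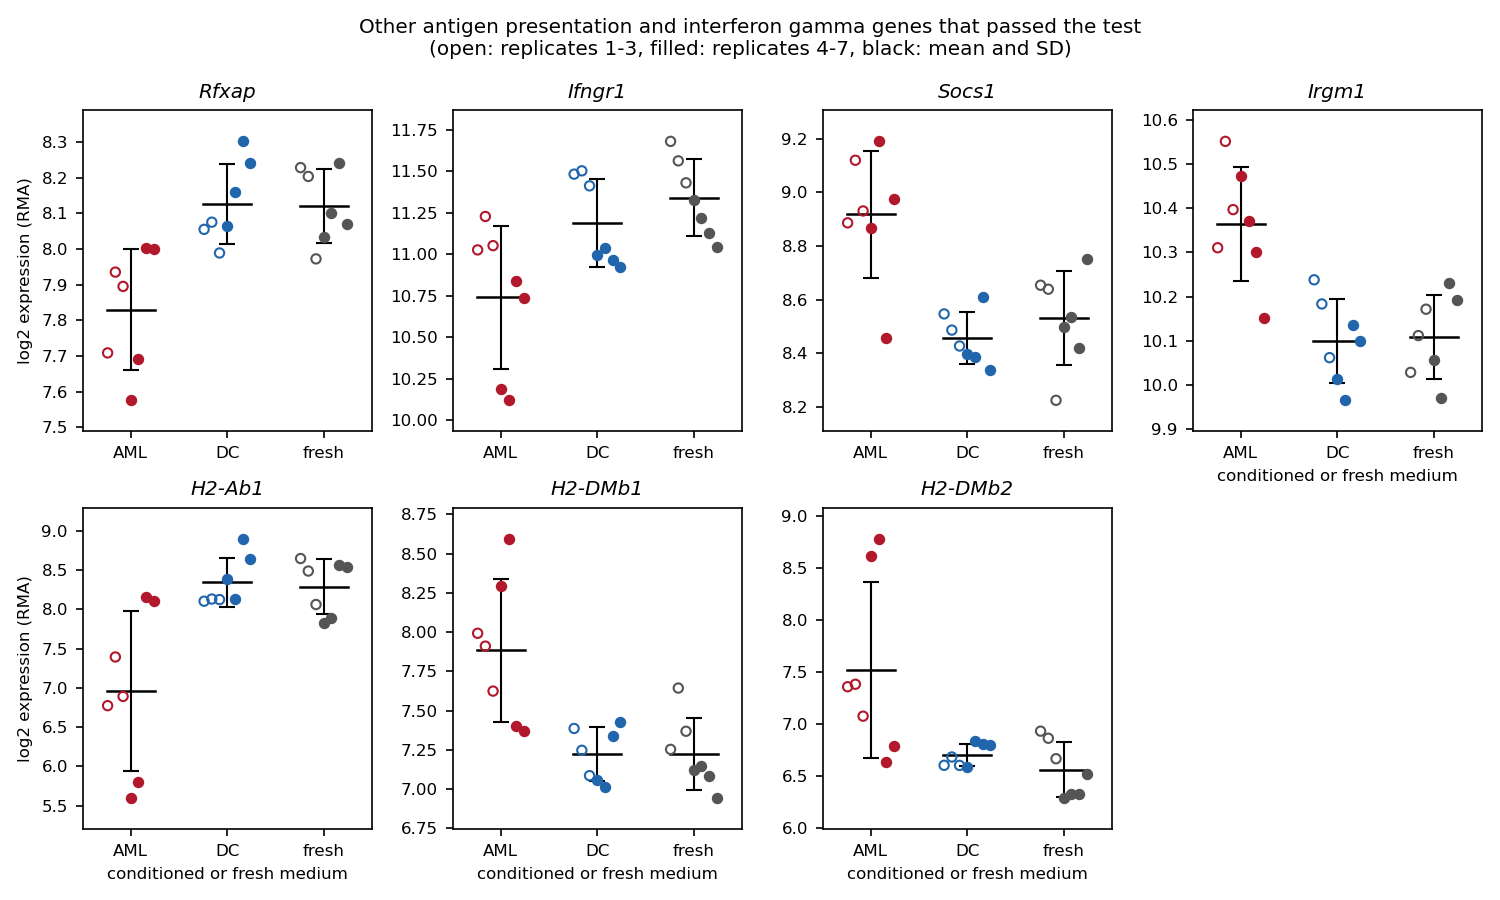
Log2 expression (y axis) by medium (x axis: AML, DC, fresh) of the 7 listed genes of antigen presentation and interferon gamma response that passed the test. Points are arrays, open for replicates 1 to 3 and filled for 4 to 7; black lines are means with SD (n = 7). AML replicates 4 and 5 are lowest for *H2-Ab1* at 5.60 and 5.80.

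The genes whose levels ran most like the mean of the 9, each centred on its own mean, over the 21 arrays were *Cst7* (Pearson r 0.88), which encodes cystatin F, *Gm7030* (0.86), *Sun2* (0.86), *H2-Q2* (0.84) and *Ermap* (0.84). None was called between AML-conditioned and fresh medium, with log2 differences of 0.06 for *Cst7*, 0.15 for *Gm7030*, 0.25 for *Sun2*, 0.10 for *H2-Q2* and 0.04 for *Ermap*. Among the 9 themselves *Tapbp* followed the mean most closely (0.89), and *Psmb10* least (-0.03).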

How the data were processed

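Expression was measured on a mouse Affymetrix array with 21 samples. The log2 value of each transcript cluster is as the authors deposited it; the submitters' processing notes name RMA and oligo, with versions not given in the sources used here. RMA subtracts background, equalises the distribution of the arrays and combines probes, so differences near the ends of the scale are compressed, and there is no detection call. Of 22203 transcript clusters, 19572 had 1 gene symbol, 0 several and 2631 none; the cluster with the highest mean was kept per symbol, which left 19505 genes, without a filter. Differences were fitted with limma 3.58.1 in R 4.3.3 (lmFit and eBayes, two-sided, all arrays in 1 fit, no covariates). Benjamini-Hochberg adjustment covered every gene, with calls under 0.05. The fit was tested on simulated data with independent noise and changes larger than the differences of the class I genes. That test does not show whether changes as small as theirs would be called. The number of arrays limits the precision. The arrays are labelled as biological replicates, but nothing says that they came from separate mice. The p-values set each difference against the spread between these arrays, which may be technical.

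The 10 genes, the lists and the rule for named genes (the 10 genes, called and preset genes of the lists, the extremes of a list, and the 5 genes most like the mean) were chosen with earlier results of these data known. Promoter sequences are RefSeq's (GRCm38.p6). Alternatives left out arrays, added the replicate number as a block, or changed scaling, filter, weights or variance model. For the 7 called genes of related pathways these alternatives were chosen after seeing the data.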

Additional observations from a re-analysis of the deposited data

Results flagged for a closer look

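In 3 of 27 sets of 7 arrays (9 genes in 3 media) 1 array lay far from the rest by Dixon's test, which chance alone gives in about 1 in 20 sets. Fresh replicate 1 was the highest fresh-medium array for *Tap2* at 9.33, with the next at 9.08, and for *Tapbp* at 10.37, with the next at 10.07. Fresh replicate 4 was the lowest fresh-medium array for *Psmb8* at 10.41, with the next at 10.63.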

How the results depend on the processing

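No class I, loading or immunoproteasome gene was called in any comparison under any of 32 alternatives (0 of 864 values), and the smallest adjusted p was 0.105. Signs turned in 51 of the 864 values, none above 0.15 in size. Against fresh medium the AML difference turned to -0.035 for *H2-D1*, -0.027 for *Tap1*, -0.082 for *Tap2*, -0.029 for *Psmb9* and 0.0058 for *Psmb10* in replicates 1 to 3 only, to 0.11 for *Psmb8* in replicates 4 to 7 only and 0.022 with arrays centred on their medians, and to -0.039 for *Tap2* without AML replicates 4 and 5. The DC difference turned to -0.0012 for *H2-K1*, -0.085 for *H2-D1*, -0.093 for *Tap2*, -0.011 for *Tapbp*, -0.15 for *Psmb8* and -0.016 for *Psmb10* in replicates 1 to 3 only. It turned to 0.017 for *Tap1* and 0.046 for *Psmb9* in replicates 4 to 7 only, to -0.012 for *Psmb10* after a further quantile normalization, to 0.00685 for *Tap1* and 0.029 for *Psmb9* after centring, and to 0.0097 for *Psmb9* with array weights. Between AML and DC medium it turned to -0.078 for *Tap2* without AML replicates 4 and 5 and -0.022 with array weights, to 0.022 for *Psmb10* in replicates 1 to 3 only, and to -0.0022 for *B2m* in replicates 4 to 7 only. Without 1 array the AML difference from fresh medium ran from -0.042 to 0.034 for *Psmb8*. The DC difference ran from -0.0013 to 0.059 for *H2-D1*, -0.049 to 0.0014 for *Tap1*, -0.019 to 0.048 for *Psmb8*, -0.021 to 0.018 for *Psmb9* and -0.029 to 0.024 for *Psmb10*. AML against DC ran from -0.0024 to 0.020 for *B2m*, -0.016 to 0.061 for *Tap2* and -0.051 to 0.014 for *Psmb8*. The cause of these turns was not tested.

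Counts over all genes moved more. Against the 541 genes called between AML-conditioned and fresh medium, 111 were called without AML replicates 4 and 5, 32 in replicates 4 to 7 only and 246 with the 2 media alone. Without 1 array the count ran from 218 to 776, and it was 249 without AML replicate 4, 218 without AML replicate 5, 299 without fresh replicate 2 and 341 without fresh replicate 4. Against the 0 genes for DC-conditioned and fresh medium (1251 at an unadjusted p under 0.05 in limma), 1 was called without AML replicates 4 and 5 and 2 with array weights, and 0 to 2 without 1 array (1 without AML replicate 5, DC replicate 1, 3 or 4 or fresh replicate 6, and 2 without DC replicate 2). Against the 466 for AML-conditioned and DC-conditioned medium, the counts were 92 without AML replicates 4 and 5, 43 in replicates 4 to 7 only and 249 with the 2 media alone. Without 1 array they ran from 220 (AML replicate 4) to 784 (AML replicate 6), with 242 without AML replicate 5, 308 without DC replicate 4 and 289 without DC replicate 7. With the replicate number as a block 1012, 1 and 784 genes were called in the 3 comparisons, and 0 of the 9 in each. Same-numbered arrays correlated by -0.11 to 0.36 in their deviations from the group means, and 7 of 21 arrays correlated best with their own number. Centring the arrays gave 289 higher and 197 lower calls for AML-conditioned against fresh medium, beside 253 and 288. The array values give no signal over background, and 7 arrays a medium limit what differences could be seen.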
